A study of Homo sapiens with 59 samples.

Results

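The promoters and gene bodies of 10 genes that control passage through G1 were followed across histone marks in NCI-H661, a human cell line established from a large cell carcinoma of the lung. The genes are the kinases CDK4 and CDK6, the D-type cyclins CCND1, CCND2 and CCND3, the kinase inhibitors CDKN1A, CDKN1B, CDKN2A and CDKN2B, and the retinoblastoma gene RB1. They were chosen by name, 10 of the 20007 protein-coding genes examined, and all 10 are accounted for. In the knockdown experiment, cells of 3 lines carried hairpins that doxycycline switches on, directed at DPPA2, at DPPA4 or at the pair (shDPPA2, shDPPA4 and shDPPA2+4), and were kept for 7 days with doxycycline at 2 µg/ml (DOX) or with water (H2O). Each line was a sorted bulk population, the double line was built on the shDPPA2 line, and no line with a control hairpin was analysed here, so that an effect of doxycycline itself cannot be told apart from the knockdown. In the inhibitor experiment, parental cells without hairpins were kept for 1 day with 10 µM A-485, an inhibitor of the p300 and CBP acetyltransferases, or with DMSO. The knockdown gave 36 libraries with a peak list, 2 for each line, treatment and target (H3K4me3, H2AK119ub and H3K27me3), and the inhibitor gave 15 (H3K27ac, H2AK119ub, H3K27me3 and, with DMSO only, 1 SUZ12 library).

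CDK4 and CDK6 bind a D-type cyclin in early G1 and phosphorylate RB1, which otherwise holds E2F transcription factors inactive. CDKN2A (p16INK4A) and CDKN2B (p15INK4B) bind CDK4 and CDK6 directly, whereas CDKN1A (p21) and CDKN1B (p27) act on several cyclin-CDK complexes, and CDKN2A is often lost in lung cancer. H3K4me3 marks promoters of active or poised genes, H3K27ac marks active promoters and enhancers, H2AK119ub is deposited by Polycomb repressive complex PRC1, and H3K27me3 by the Polycomb complex PRC2, of which SUZ12 is a core subunit. DPPA2 and DPPA4 are DNA-binding proteins of the early embryo that this line expresses.

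The start regions of CDK4, CDK6 and CDKN1A are shown because the H2AK119ub results below turn on these genes. They come from RefSeq (GRCh38.p14) and run from 250 bases before to 50 bases after the start, at chr12:57752261-57752560 (minus strand), chr7:92836524-92836823 (minus strand) and chr6:36678464-36678763 (plus strand). Capitals mark the GC box GGGCGG, in either orientation, and the E box CACGTG.
CDK4: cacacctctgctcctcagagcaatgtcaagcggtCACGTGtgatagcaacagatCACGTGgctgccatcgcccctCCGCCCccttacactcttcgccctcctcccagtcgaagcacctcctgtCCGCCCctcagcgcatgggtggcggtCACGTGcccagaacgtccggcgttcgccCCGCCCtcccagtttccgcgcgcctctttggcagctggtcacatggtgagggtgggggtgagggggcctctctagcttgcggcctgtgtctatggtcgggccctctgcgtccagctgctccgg
CDK6: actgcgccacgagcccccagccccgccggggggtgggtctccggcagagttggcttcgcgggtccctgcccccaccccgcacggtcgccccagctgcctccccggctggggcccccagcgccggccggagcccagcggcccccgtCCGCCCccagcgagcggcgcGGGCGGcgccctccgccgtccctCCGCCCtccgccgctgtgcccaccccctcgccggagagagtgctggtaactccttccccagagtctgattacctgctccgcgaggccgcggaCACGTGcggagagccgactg
CDKN1A: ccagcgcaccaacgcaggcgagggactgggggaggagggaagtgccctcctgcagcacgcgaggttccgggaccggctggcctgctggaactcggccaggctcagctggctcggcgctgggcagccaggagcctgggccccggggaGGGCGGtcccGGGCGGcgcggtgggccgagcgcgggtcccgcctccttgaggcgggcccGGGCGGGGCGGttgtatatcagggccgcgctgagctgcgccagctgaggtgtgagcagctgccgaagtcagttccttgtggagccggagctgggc
CDK4 held 3 GC boxes and 3 E boxes, CDK6 held 3 GC boxes and 1 E box, and CDKN1A held 4 GC boxes, of which a pair overlap, and no E box. A GC box was present in 45% and the E box in 7.26% of 35116 RefSeq promoters of this length. CpG counts were 23 in CDK4, 37 in CDK6 and 29 in CDKN1A, against a median of 14 (interquartile range 4 to 28) over all promoters. All were above the median, CDK4 within the interquartile range and CDKN1A just above it. The E2F cores TTTCGCGC and TTTGGCGC, present in 0.515% and 0.652% of promoters, were found in none of the members with an entry. RefSeq entries were matched for 8 of the 10 genes, that of RB1 lying 172699 bp from the start used below, and CCND1 and CCND2 are named only.

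For each library, a promoter was the window of 1500 bp on each side of the start of the canonical transcript (3001 bp, GENCODE 44, hg38), and its value was the length in bp under peaks with a log2 fold over input above 1 and an FDR under 0.05. A promoter counted as marked with at least 300 bp under such peaks. Reads in such peaks numbered 8394879 to 19379794 per H3K4me3 library of the knockdown lines, 1330926 to 4136521 per H2AK119ub library and 1085365 to 10545826 per H3K27me3 library. By H3K4me3 at the promoter, DPPA2, DPPA4, NKX2-1, VIM, KRT18, EPCAM and CDH1 were marked in 12 of 12 libraries, whereas the epithelial KRT8, the surfactant genes SFTPC and SFTPB and the blood, endothelial and liver markers were marked in 0 of 12. The 3 H2AK119ub libraries labelled DOX replicate 3 stood apart. Their marked promoters overlapped those of the other H2AK119ub libraries with a median Jaccard index of 0.44 to 0.591, against 0.67 to 0.729 for the other 9. They marked 28.6 to 41.7% of all promoters although they held 3653434 to 4136521 reads in peaks, against 46.9 to 50.0% and 1330926 to 1614678 reads for H2O replicate 3. The losses of H2AK119ub, its covered lengths, the CDK6 peak and the second starts are therefore also given without these libraries or within a replicate.

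In control cells, 9 of the 10 genes carried an active promoter state, and CCND2 differed from them. All 10 promoters were marked by H3K4me3 in 6 of 6 H2O libraries, with medians of 2196 bp at CDKN2B to 3001 bp at CDK4, CDK6, CCND1, CDKN1B and CDKN2A. H3K27ac marked 9 of 10 promoters in both DMSO libraries and covered 0 bp at CCND2, which encodes cyclin D2. CCND2 was the only member under H3K27me3 (median 2801 bp, n = 6 H2O libraries) and under SUZ12 (3001 bp in the single DMSO library), and both covered 0 bp at the other 9 promoters. Of all promoters, the H2O libraries marked 69.9 to 70.6% with H3K4me3 and 11.1 to 17.9% with H3K27me3. The DMSO libraries marked 58.9 and 73.6% with H3K27ac and 12.2% with SUZ12. Finding 1 of 10 members with H3K27me3 and SUZ12 is thus near the share over all promoters. H2AK119ub was broader in distribution, with medians of 2844 bp at CDKN1A, 2801 bp at CCND2 and 2128 bp at CDK6, against 450 bp at CDKN2B and 0 bp at CDKN2A and RB1. CCND2, at chr12:4269771-4305353, thus held H3K4me3, H2AK119ub, H3K27me3 and SUZ12 in the same window, though its promoter also contains the start of the gene ENSG00000285901.

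**Figure D1:**
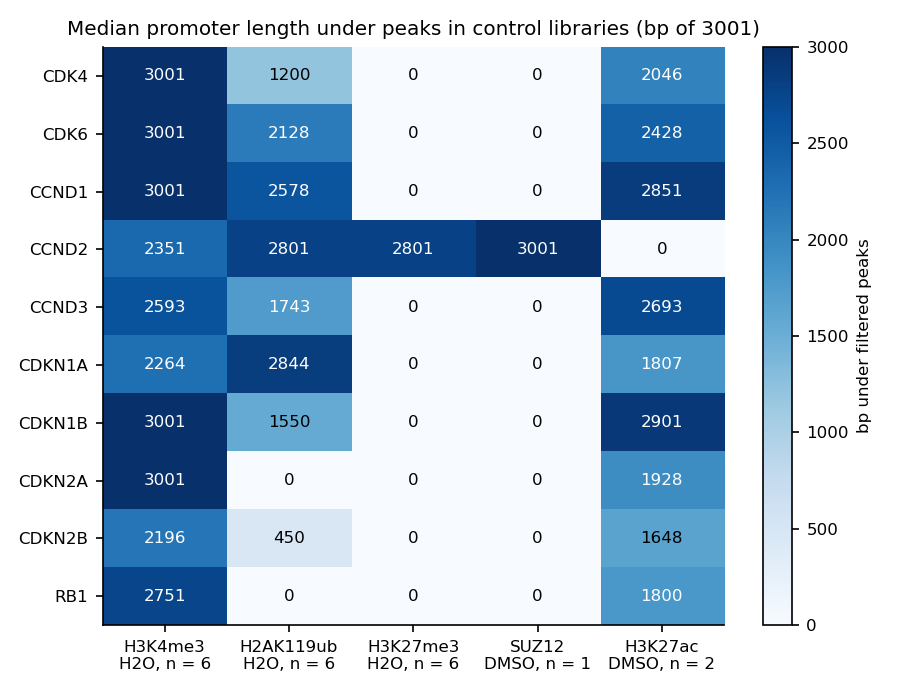
Median length of each promoter (bp of 3001) under filtered peaks in control libraries, with genes in rows and targets in columns (6 H2O libraries of the 3 lines for H3K4me3, H2AK119ub and H3K27me3, and parental DMSO libraries for SUZ12 and H3K27ac). CCND2 is the only gene with H3K27me3 (2801 bp) and SUZ12 (3001 bp) and has 0 bp of H3K27ac.

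The first comparison asked whether loss of DPPA2/4 altered H3K4me3 at these genes. No change was called at any of them. In the exact sign-flip permutation test of covered length, no promoter at all passed after adjustment (smallest adjusted p = 0.828). A member that failed this test is therefore not shown to be unaltered. All 10 promoters were marked in all 6 DOX and all 6 H2O libraries, so that 0 of 10 were lost in each line, where 0.0358% (shDPPA2), 0.0216% (shDPPA4) and 0.0430% (shDPPA2+4) of promoters marked in both H2O libraries were. The H3K4me3 coverage of the window differed most at CCND2, at 2828 ± 145 bp in DOX and 2315 ± 360 bp in H2O cells (SD, n = 6 each, higher in 5 of 6 pairs of line and replicate, exact sign-flip permutation p = 0.0625, adjusted p = 0.828), and no member reached the smallest p this test allows, which 0.0762% of promoters did with DOX lower and 2.60% with DOX higher. The 22 other genes of the G1 to S pathway examined, among them CCNE1, CDK2 and E2F1, were likewise marked in every library. Scaled to the reads in peaks, H3K4me3 was densest at CDK6, at 30.1 ± 1.55 reads per kb per 1000000 reads in peaks in DOX and 31.1 ± 1.36 in H2O cells (SD, n = 6 each), and sparsest at CCND2, at 5.52 ± 0.637 in DOX and 5.65 ± 0.706 in H2O cells. The domain at CDKN1B, the p27 gene, was the widest of the 10, at 13450 ± 339 bp in DOX and 13320 ± 133 bp in H2O cells.

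Read counts over merged peak regions were then fitted with edgeR (quasi-likelihood test, replicate number as a block). For the mean over the 3 lines, 42 of 22060 H3K4me3 regions were called higher (0.190%) and 73 lower (0.331%), at an adjusted p under 0.05 and a log2 fold change of at least 0.5 in size. None of the 20 member regions was called by edgeR, and 4 of them had an unadjusted p under 0.05, a share of regions that was 26.9% over all regions. In single lines edgeR called 0.0272% (shDPPA2), 0.0363% (shDPPA4) and 0% (shDPPA2+4) of regions lower, and called a difference between lines at 0.00907% (shDPPA4 below shDPPA2) and 0.00453% (shDPPA2+4 above shDPPA4), none of them a member. The log2 fold changes at the 10 promoters lay between -0.14 and 0.04, with standard errors of 0.025 to 0.060. The lowest was at CDKN2B (-0.14, SE 0.036, edgeR adjusted p = 0.0317), below the size needed for a call, and it passed 0.05 neither with DESeq2 (adjusted p = 0.164) nor without the replicate block (edgeR adjusted p = 0.419). CDK6 (-0.06, SE 0.026), CCND1 (0.04, SE 0.026) and CCND2 (0.00, SE 0.060) had edgeR adjusted p-values of 0.167, 0.289 and 0.994. The 22 pathway genes had 0 regions called in either direction and a median log2 fold change of 0.00.

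The shape of the H3K4me3 peak at CCND2 differed more between treatments than the number of reads under it, and is described here after its values were seen. In shDPPA2 cells the log2 fold over input was 2.76 and 3.46 with DOX (replicates 1 and 2), against 4.65 and 4.98 with H2O. In shDPPA4 cells it was 3.29 and 3.46 with DOX, against 4.14 and 4.68 with H2O. In shDPPA2+4 cells it was 3.87 and 3.80 with DOX, against 4.15 and 4.52 with H2O. Every DOX library was below every H2O library, which held for 0.231% of 13836 promoters. The mean was 3.44 ± 0.40 in DOX and 4.52 ± 0.33 in H2O cells (SD, n = 6 each), lower in 6 of 6 pairs of line and replicate. The exact sign-flip permutation test gave its smallest possible two-sided p of 0.03125, which did not pass after adjustment over all promoters (adjusted p = 0.216, as for 0 of 13836 promoters). The samples hold a single input for each line and treatment, labelled replicate 2. Where both replicates of a line were set against it, their folds share that input. The 6 pairs are then not independent, at CCND2 and at CCND1 below. The peak was also wider in 5 of 6 pairs, at 4183 ± 1235 bp in DOX and 2900 ± 379 bp in H2O cells (exact sign-flip permutation p = 0.0625, adjusted p = 0.561), with 5700 and 5800 bp in the replicate 2 DOX libraries of shDPPA2 and shDPPA4. Wider peaks with DOX were the general direction, at 79.1% of 13836 promoters with a mean difference of 188 bp, and the H3K4me3 libraries had 9252289 to 19379794 reads in peaks with DOX (19379794 and 13839131 in those of replicate 2 just named) and 8394879 to 10986087 with H2O. The part of depth in the CCND2 width was not tested. A fold over input is an average over the peak, and the reads in the whole CCND2 region differed by 0.00 on the log2 scale, as given above. CCND1, the cyclin D1 gene, had the opposite direction, at 4.98 ± 0.23 in DOX and 4.64 ± 0.34 in H2O cells, higher in 6 of 6 pairs (exact sign-flip permutation p = 0.03125, adjusted p = 0.216), and its libraries overlapped, whereas every DOX library was above every H2O library at 0.976% of promoters. Of the 13836 promoters, the mean fold was higher with DOX at 8594 and lower at 5242. How many of them reached the smallest p for peak fold was not counted.

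**Figure D2:**
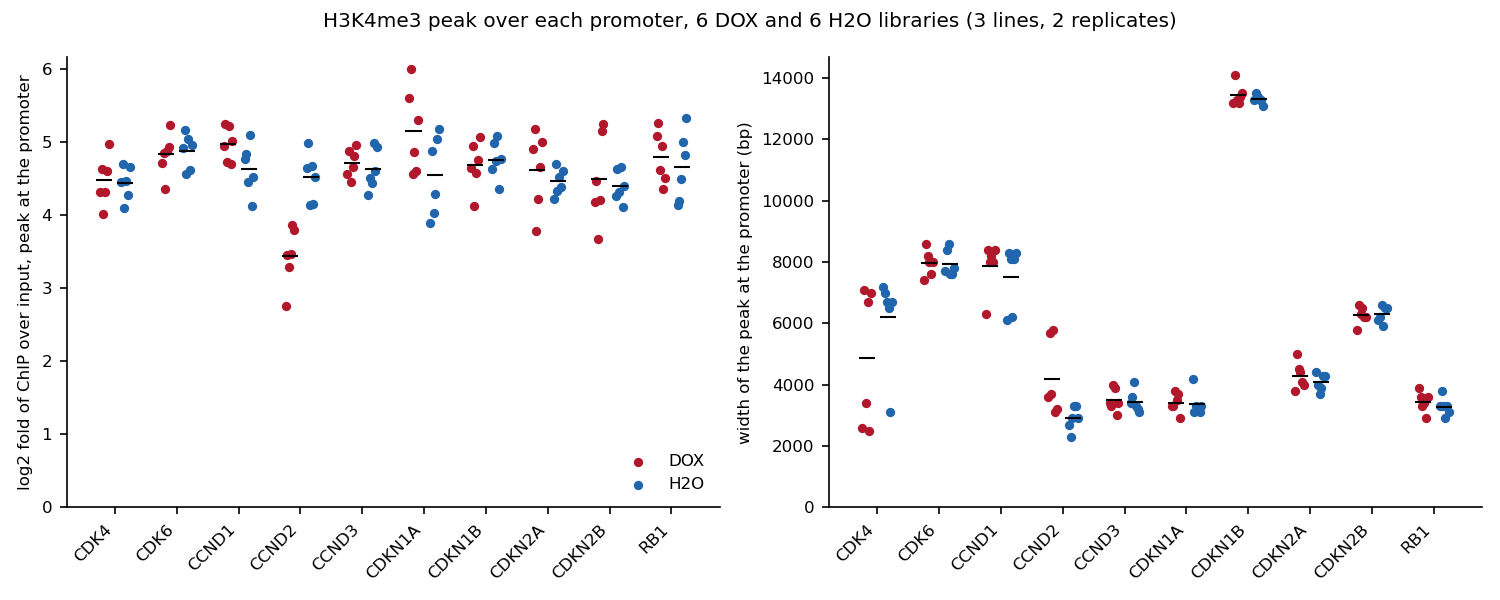
Log2 fold of ChIP over input (left) and width in bp (right) of the H3K4me3 peak at each promoter, for 6 DOX (red) and 6 H2O (blue) libraries, with bars at the means. The 6 DOX libraries of CCND2 lie at 2.76 to 3.87, all below the 6 H2O libraries at 4.14 to 4.98, and the other genes overlap.

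The second comparison asked whether H2AK119ub at these promoters depended on DPPA2/4. Both kinase genes, CDK4 and CDK6, lost it in shDPPA4 cells by the call rule, and no member lost it in the other lines. CDK6 was covered over 0 and 0 bp with DOX (replicates 1 and 3) and 2728 and 1928 bp with H2O in shDPPA4 cells. In shDPPA2 cells it was covered over 2928 and 328 bp with DOX, against 2328 and 1928 bp with H2O, and in shDPPA2+4 cells over 3001 and 600 bp with DOX, against 3001 and 1728 bp with H2O. DOX and H2O libraries of CDK6 thus separated in shDPPA4 cells and overlapped in the other lines. Separation in shDPPA4 was not particular to CDK6, as CDK4, CCND1, CCND2, CCND3 and CDKN1A were also lower in both DOX than in both H2O libraries. CCND2 separated in shDPPA2+4 cells too. The share of all promoters that separated within a line was not counted. CDK4 was covered over 0 and 0 bp with DOX and 1300 and 1100 bp with H2O in shDPPA4 cells. In shDPPA2 cells CDK4 had 710 and 0 bp with DOX, against 1710 and 0 bp with H2O, and in shDPPA2+4 cells 1110 and 0 bp with DOX, against 3001 and 0 bp with H2O.

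CDK4 and CDK6 were 2 of the 7 members marked in both H2O libraries of shDPPA4, where 11.0% of such promoters (968 of 8765) were lost. In shDPPA2 0 of 7 and in shDPPA2+4 0 of 6 members were lost, against 6.34% and 5.08% of all such promoters. None of the members unmarked in both H2O libraries gained it, 2 in shDPPA2 and 1 in shDPPA4, where 3.32% and 0.887% of such promoters did. Without the DOX replicate 3 library of shDPPA4 the rule called the same 2 members and 1495 of 8765 promoters. Leaving out a DOX library can only keep or add losses, so this setting could not have removed them. When 1500 bp were needed to count as marked, the losses in shDPPA4 were at CDK6 and CCND3 and no longer at CDK4. They also depended on the peak filter: with all deposited peaks, CDK6 had 2528 and 1100 bp with DOX and 2728 and 1928 bp with H2O, and CDK4 had 600 and 0 bp with DOX and 1300 and 1100 bp with H2O, so that neither was lost. With a log2 fold above 2, both CDK4 H2O libraries were at 0 bp and 1 of the CDK6 H2O libraries was. Among the 22 pathway genes, E2F5, TFDP2 and RBL2 lost H2AK119ub in shDPPA4 (3 of 15 marked in both H2O libraries), SKP2, a ubiquitin ligase subunit that targets p27, and the pocket protein gene RBL1 did in shDPPA2 (2 of 12), and 0 of 11 did in shDPPA2+4. Without the DOX replicate 3 libraries these genes could only stay lost, CDK2 was added in shDPPA4 (4 of 15), and 0 of 11 were lost in shDPPA2+4.

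Over all 3 lines, mean coverage was lower with DOX at 8 of 10 promoters, with a median difference of -498 bp. Over the 15400 promoters with a peak, 70.5% were lower and the median difference was -189 bp. Of the 20 pathway genes with a peak, 18 were lower and 1 higher, with a median difference of -475 bp, near that of the members. CDK6 averaged 1143 ± 1429 bp in DOX and 2274 ± 505 bp in H2O cells (SD, n = 6 each), and CDK4 averaged 303 ± 487 bp in DOX and 1185 ± 1132 bp in H2O cells (exact sign-flip permutation p = 0.125 and adjusted p = 0.666 for each). CCND1 averaged 1980 ± 759 bp in DOX and 2512 ± 293 bp in H2O cells, lower in 5 of 6 pairs (exact sign-flip permutation p = 0.0938, adjusted p = 0.666), the smallest p of the 10. No member reached the smallest possible p, which 2.52% of promoters did in this direction and 0.0909% in the other. CDKN1A averaged 2194 ± 935 bp in DOX and 2751 ± 300 bp in H2O cells, and CCND3, the cyclin D3 gene, 1378 ± 771 bp in DOX and 1976 ± 578 bp in H2O cells. CDKN2A (441 ± 1079 bp in DOX, 333 ± 816 bp in H2O cells) and RB1 (542 ± 761 bp in DOX, 233 ± 362 bp in H2O cells) were the exceptions in direction, each resting largely on 1 DOX library, shDPPA2 replicate 1.

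By the counts and medians of the members, the difference was largely one of replicate 3. Within replicate 1, 5 members were lower and 5 higher with DOX, with a median difference of -31.7 bp, and within replicate 3, 8 were lower and 0 higher, with a median of -832 bp. Of all promoters with a peak, 9223 of 14538 were lower and 4928 higher within replicate 1. Within replicate 3, 9666 of 13129 were lower and 3327 higher. The mean differences over all promoters were -160.9 bp in replicate 1 and -350.5 bp in replicate 3, and are not to be set against the members' medians. CDK4 was lower in 3 of 3 lines within replicate 1, at 607 bp in DOX and 2004 bp in H2O cells on average, and in 1 of 3 lines within replicate 3. CDKN1A had 3001, 2787 and 2987 bp with DOX in replicate 1 (shDPPA2, shDPPA4 and shDPPA2+4), against 2514, 3001 and 3001 bp with H2O, and 1987, 600 and 1801 bp with DOX in replicate 3, against 2300, 3001 and 2687 bp with H2O. CDKN1A was therefore lower in 3 of 3 lines only within replicate 3, the replicate whose DOX libraries stood apart. The fits with replicate 1 or replicate 3 alone are given in the closing section.

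**Figure D3:**
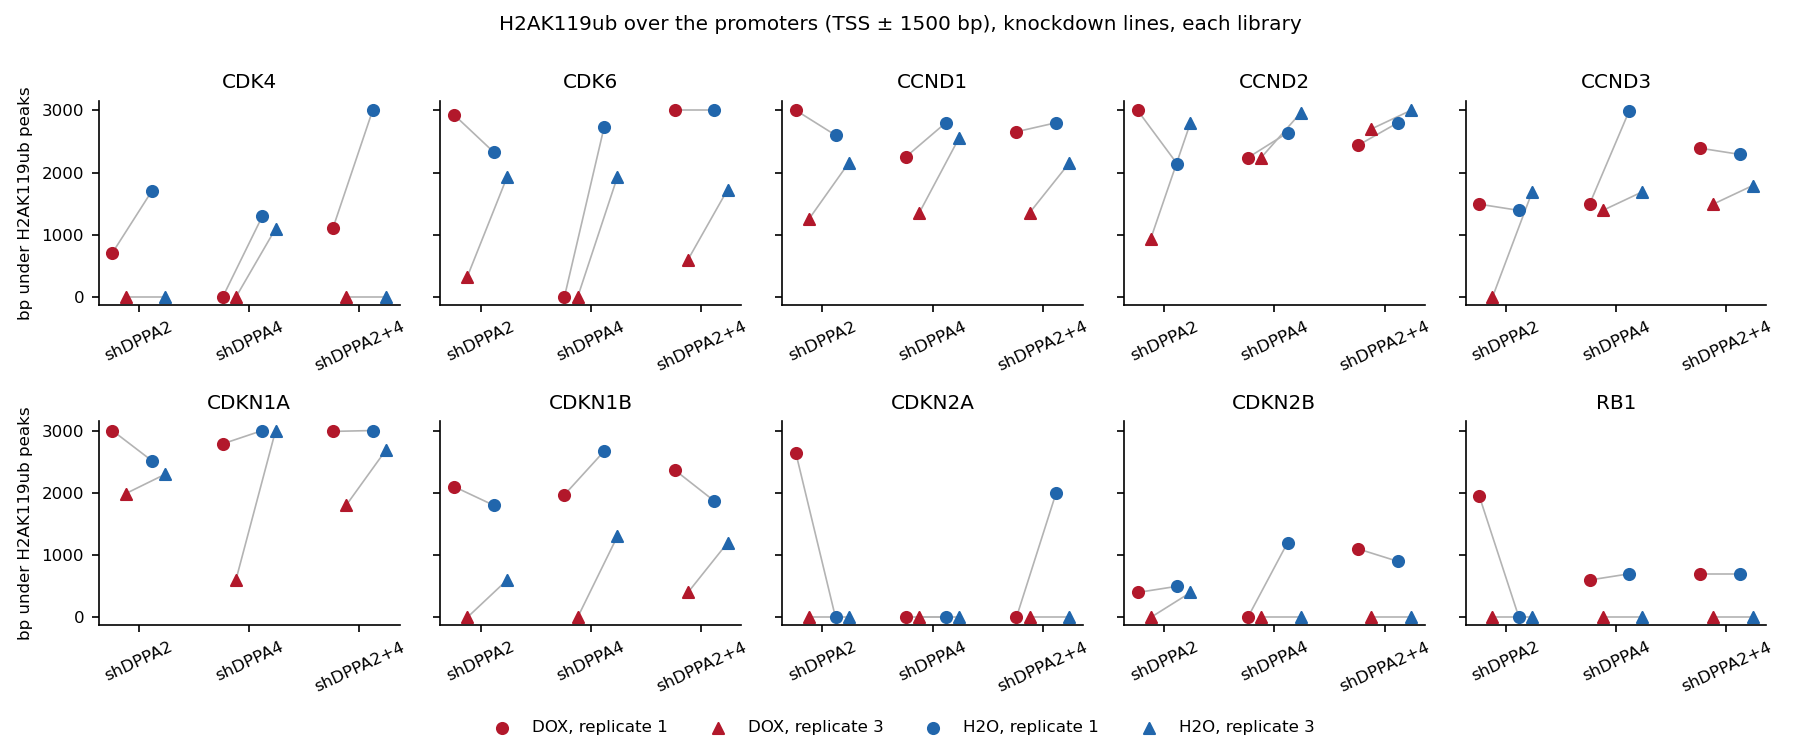
Length of each promoter (bp of 3001) under H2AK119ub peaks in each library, with DOX in red and H2O in blue, circles for replicate 1, triangles for replicate 3, and lines joining the pair of 1 line and replicate. CDK4 and CDK6 are at 0 bp in both shDPPA4 DOX libraries and at 1100 to 2728 bp in the shDPPA4 H2O libraries.

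The edgeR fit of H2AK119ub reads tested 6161 of 170847 regions, those with a peak in all 12 libraries and enough reads. A region whose peak was absent from any library could not be called, so the fit does not speak for lost peaks. Of the 6161 regions, 0 were called in the mean over lines (1327 had an unadjusted p under 0.05). DESeq2 called 400 (6.49%), none of them a member. All 6 member regions tested were lower with DOX, with a median log2 fold change of -0.31, against -0.02 over all regions. The CDK4 region had 801 and 226 reads with DOX and 725 and 455 with H2O in shDPPA2, 493 and 404 with DOX and 768 and 443 with H2O in shDPPA4, and 695 and 586 with DOX and 921 and 461 with H2O in shDPPA2+4 (replicates 1 and 3). Its log2 fold change was -0.60 (SE 0.18, edgeR adjusted p = 0.155). This region, chr12:57750201-57771600, also runs through the neighbouring genes, so that its reads are not those of the CDK4 promoter alone. CDKN1A had -0.77 (SE 0.42, edgeR adjusted p = 0.299), CCND2 -0.32 (SE 0.17, adjusted p = 0.300), CCND3 -0.31 (SE 0.19, adjusted p = 0.346) and CCND1 -0.25 (SE 0.14, adjusted p = 0.306), all from edgeR. CDK6 had no peak in 1 of 12 libraries (shDPPA4 DOX replicate 3) and so did not enter this fit. When regions with a peak in 6 or more of the 12 libraries were fitted, with 0 for a missing peak, its log2 fold change was -2.67 (SE 0.70, edgeR adjusted p = 0.431). No difference between lines was called at any member region (0 of 6161 regions called by edgeR in each of the 3 contrasts, with at most 256 at an unadjusted p under 0.05), so the loss at CDK4 and CDK6 in shDPPA4 is not shown to differ from the other lines, and CDK6 was not in that test.

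Around the starts, the peaks had different extents. At CDK6 the H2AK119ub peak ran downstream from the start. Positions up to 4100 bp from the start were picked where 6 of 6 H2O libraries carried it, 36 in all. There at most 3 of 6 DOX libraries did, 2 of 3 in replicate 1 and at most 1 of 3 in replicate 3. This choice fixes the H2O count and favours a lower DOX count, and other promoters were not counted in this way. At CDK4 most libraries carried H2AK119ub upstream of the promoter window, towards the second start described below.

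**Figure D4:**
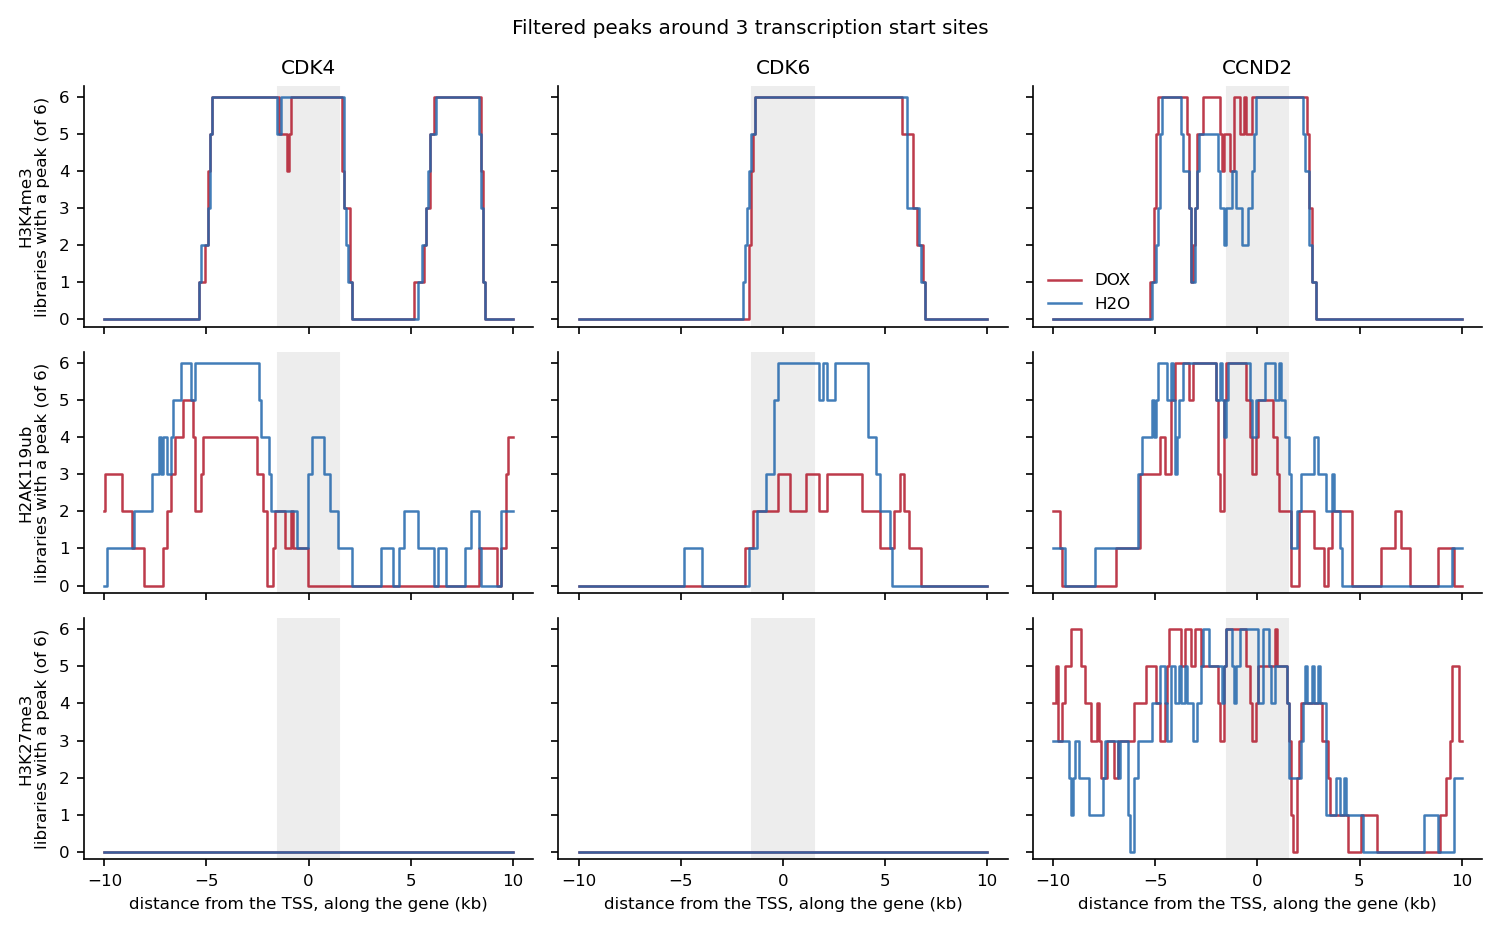
Number of libraries (of 6 DOX, red, and 6 H2O, blue) with a filtered peak at each position within 10 kb of the start of CDK4, CDK6 and CCND2, read along the gene, with the promoter window in grey. At positions downstream of the CDK6 start picked because 6 of 6 H2O libraries carried H2AK119ub, at most 3 of 6 DOX libraries did. H3K27me3 appears at CCND2 only.

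H3K27me3 was measured at CCND2 as the only member promoter with the mark. In shDPPA2 cells it covered 3001 and 1839 bp with DOX (replicates 1 and 3), against 2801 and 3001 bp with H2O. In shDPPA4 cells it covered 2701 and 1901 bp with DOX, against 3001 and 1539 bp with H2O. In shDPPA2+4 cells it covered 3001 and 2939 bp with DOX, against 2739 and 2801 bp with H2O. DOX and H2O libraries overlapped, with means of 2564 ± 549 bp in DOX and 2647 ± 554 bp in H2O cells (SD, n = 6 each, exact sign-flip permutation p = 0.875, whereas 0.237% of promoters reached the smallest p with DOX lower and 3.10% with DOX higher). CCND2 was not lost in any line, where 3.66%, 1.37% and 1.92% of promoters marked in both H2O libraries were lost in shDPPA2, shDPPA4 and shDPPA2+4. None of the other 9 members gained the mark, which 0.753%, 0.594% and 0.811% of unmarked promoters did in those lines. Its region had a log2 fold change of 0.04 (SE 0.13, edgeR adjusted p = 0.877), and 0 of 14942 regions were called (0%, with 3695 at an unadjusted p under 0.05). Over the whole CCND2 gene with 10 kb on each side, H3K27me3 covered 46.3 ± 7.55% in DOX and 30.4 ± 19.1% in H2O cells, and the H2O replicate 3 libraries were the shallowest of this target, with 1085365 to 2227464 reads against 5989134 to 10345651 in DOX replicate 3.

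Gene windows of 10 kb on each side held a further H3K27me3 domain near CDK4, at chr12:57763301-57767300, which lies beyond the gene among AGAP2, CYP27B1, MARCHF9 and TSPAN31. Its log2 fold change was -1.73 (SE 0.43, edgeR adjusted p = 0.111), and within the CDK4 window H3K27me3 covered 7.63 ± 3.26% in DOX and 10.5 ± 3.59% in H2O cells. RB1 had 1.05 ± 0.919% of its window covered in DOX and 0.855 ± 0.910% in H2O cells, and the other 7 genes had none. H3K4me3 filled the largest share of the window at CDKN2A, 55.6 ± 2.75% in DOX and 54.7 ± 1.47% in H2O cells, and the windows of CDKN2A and CDKN2B overlap each other.

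The other comparison asked what p300/CBP inhibition did to H3K27ac at these promoters. Reads in peaks were 780375 and 603895 in the A-485 libraries (replicates 2 and 4) and 2709073 and 5647079 in the DMSO libraries. The input counts of the library labelled A-485 replicate 4 equalled those of a DMSO library in 21 of 21 peaks with shared borders, and those of the library labelled DMSO replicate 4 equalled those of an A-485 library in 36 of 36. These counts cannot tell an exchanged input from exchanged ChIP labels. The labels were kept, values are given for each replicate, and exchanged ChIP labels would turn round the direction within replicate 4. As labelled, A-485 was lower than DMSO at 9 of 9 marked promoters within replicate 4, as it was within replicate 2, and both A-485 libraries had fewer reads in peaks than both DMSO libraries.

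H3K27ac covered less of all 9 marked promoters with A-485 on average, by a median of -1017 bp, and so did 98.7% of 15011 promoters, by a median of -950 bp. Reads in peaks were fewer with A-485 too. They are counted under the H3K27ac peaks themselves, so they cannot tell sequencing depth apart from a change in the mark, which was not tested. The ChIP reads scaled to the reads in peaks had the other direction at 6 of the 9 genes and at 45.5% of all 15011 promoters. CDK6 averaged 32.8 ± 10.9 reads per kb per 1000000 reads in peaks with A-485 and 16.5 ± 9.95 with DMSO, and CDKN1B averaged 40.7 ± 18.5 with A-485 and 22.1 ± 15.6 with DMSO (SD, n = 2 each), while CCND3 (10.3 ± 1.85 with A-485, 11.2 ± 5.52 with DMSO), CDKN1A and CDKN2B were lower. This scaling sets each library to the same total, so neither measure gives the change in amount. By covered length, CCND3 had 900 and 800 bp with A-485 (replicates 2 and 4) and 2493 and 2893 bp with DMSO. CDK4 had 900 and 900 bp with A-485 and 1900 and 2191 bp with DMSO. CDKN1A had 800 and 0 bp with A-485 and 1800 and 1814 bp with DMSO. At these 3 genes each A-485 library was below each DMSO library. CDKN2B had 496 and 0 bp with A-485 and 2196 and 1100 bp with DMSO, and CDKN1B had 2468 and 1300 bp with A-485 and 2801 and 3001 bp with DMSO. RB1, with 1400 and 1000 bp with A-485 and 1700 and 1900 bp with DMSO, was the sixth gene without overlap. CDK6 (2228 and 1528 bp with A-485, 2628 and 2228 bp with DMSO), CCND1 (2701 and 2445 bp, against 3001 and 2701 bp with DMSO) and CDKN2A (2100 and 1000 bp, against 2200 and 1657 bp with DMSO) touched or overlapped. In all, 6 of 9 members did not overlap between treatments, against 65.1% of all promoters. With 2 libraries against 2, an exact permutation test could not pass 0.05, and none was run.

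None of the 9 members lost H3K27ac by the call rule, where 12.4% of promoters marked in both DMSO libraries did, and this held when either replicate 4 library was left out. Of the 22 pathway genes, all marked in both DMSO libraries, CDKN1C (p57) lost it. In the edgeR fit, whose scaling centres the changes of all regions on 0, 0 of 8967 H3K27ac regions were called (0%, with 662 at an unadjusted p under 0.05). These were the tested part of 128296 regions, and a region without a peak in any 1 library could not be called. CCND3 had the lowest value of the member promoters, -1.19 (SE 0.43, edgeR adjusted p = 0.645), and the other 6 promoters fitted lay between -0.16 and 0.31.

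**Figure D5:**
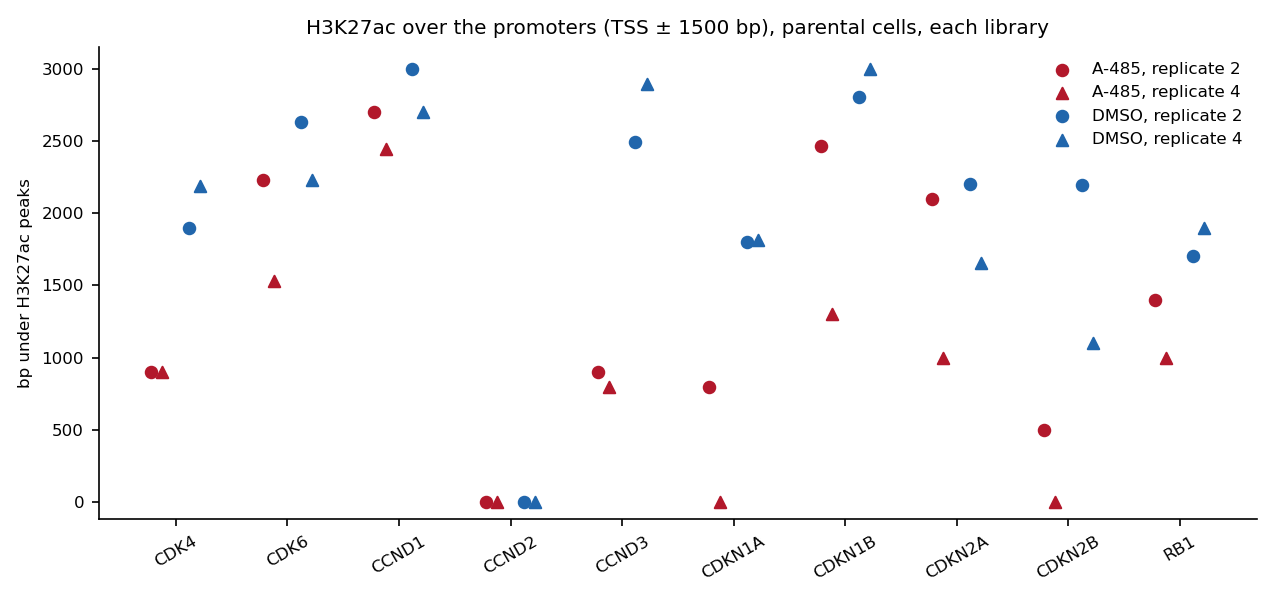
Length of each promoter (bp of 3001) under H3K27ac peaks in parental cells with A-485 (red) or DMSO (blue), with circles for replicate 2 and triangles for replicate 4. All 9 marked genes are lower on average with A-485, by a median of -1017 bp, and CCND2 is at 0 bp in all 4 libraries.

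H2AK119ub after A-485 was read from libraries of 390762 to 2133807 reads in peaks. CCND2 had 2701 and 600 bp with A-485 (replicates 3 and 4) and 3001 and 800 bp with DMSO, and CDK6 had 1528 and 528 bp with A-485 and 628 and 128 bp with DMSO. CDKN1A had 1800 and 1314 bp with A-485 and 1300 and 0 bp with DMSO. Replicates of 1 treatment differed by as much as the treatments did at CCND2. None of the 3 members marked in both DMSO libraries was lost, against 8.15% of promoters, none of the 5 marked in neither gained it, against 1.13%, and 0 of 4515 regions were called by edgeR (132 at an unadjusted p under 0.05). The pathway genes CCNE2 and CDK2 lost the mark, 2 of 6 that were marked in both DMSO libraries. For H3K27me3, CCND2 had 2539, 2801 and 1739 bp with A-485 (replicates 2, 3 and 4) and 2939, 3001 and 0 bp with DMSO. The 0 came from the shallowest H3K27me3 library, with 498618 reads in peaks and a median Jaccard index of 0.263 with its own target. None of the other 9 members gained H3K27me3, against 0.0302% of promoters. The CCND2 region had a log2 fold change of 0.38 (SE 0.39, edgeR adjusted p = 0.882), and 0 of 8822 regions were called (267 at an unadjusted p under 0.05).

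Several of the genes have a second start more than 3000 bp from the canonical one. The start 19535 bp upstream in CDKN2A, which gives p14ARF, a protein that stabilises p53, was covered over all 3001 bp by H3K4me3 in 12 of 12 libraries. It was marked by H2AK119ub in 2 of 3 DOX and 3 of 3 H2O libraries of replicate 1 and in 0 of 3 DOX and 1 of 3 H2O libraries of replicate 3, and H3K27ac covered 992 to 2392 bp with A-485 and 2592 to 3001 bp with DMSO. The start of CCND3 106878 bp upstream was marked by H3K4me3 in 12 of 12 libraries and by H2AK119ub in 3 of 3 DOX (2915 to 3001 bp) and 3 of 3 H2O libraries of replicate 1, and in 1 of 3 DOX and 3 of 3 H2O libraries of replicate 3. SUZ12 covered 1315 bp there, whereas it covered 0 bp at the canonical start of CCND3. The CDK4 start 3703 bp upstream was likewise marked by H2AK119ub in 3 of 3 DOX (2613 to 3001 bp) and 3 of 3 H2O libraries of replicate 1, and in 1 of 3 DOX and 3 of 3 H2O libraries of replicate 3. At both starts the unmarked libraries were DOX replicate 3 of shDPPA2 and shDPPA4, which are among those that stood apart. At the CDK4 start H3K27ac covered 0 bp in both A-485 libraries and 1500 to 2488 bp with DMSO. AGAP2, CYP27B1, MARCHF9 and TSPAN31 lie within 10 kb of CDK4. Whether a neighbouring gene starts within the window of this or another second start was not examined, so the marks there may belong to a neighbour. The CCND2 start 3991 bp upstream carried H3K4me3, H2AK119ub and H3K27me3 in all 6 DOX and all 6 H2O libraries, with no H3K27ac, like the canonical one. The RB1 start 77499 bp downstream carried no mark in any library.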

How the data were processed

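ChIP-Rx-seq, in which mouse chromatin is added before immunoprecipitation, was done in NCI-H661 cells. Of 59 samples, 51 have a peak list and 8 inputs have none. Per the submitters' processing notes, the tools were Trim Galore 0.6.6 for trimming, BWA 0.7.13 (hg38), deepTools 3.5.0, Picard 2.6.0 and SAMtools 1.9. The authors called domains in each library with EPIC2 against an input. The columns deposited by the authors hold ChIP and input read counts (not normalized), the log2 fold of ChIP over input, and the p-value and FDR of each domain. A score column deposited by the authors was not used. The SUZ12 list has EPIC2's columns, although the methods name another caller. Spike-in reads and the study's blacklist were not used here, so a change common to all promoters is not calibrated.

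Peaks were kept at FDR under 0.05 where the log2 fold exceeded 1 (the study's thresholds) and laid over promoters of 20007 genes (GENCODE 44). Lost promoters were marked (300 bp or more) in all control libraries and in none with treatment, and gained promoters the reverse. Covered length, peak fold and peak width were compared over the 6 pairs of line and replicate by a two-sided, exact permutation test that flips signs (smallest p 0.03125), with Benjamini-Hochberg adjustment over all promoters with a peak. The test takes the 6 pairs as independent, whereas the samples hold a single input for each line and treatment. For covered length this test passed no promoter after adjustment (smallest adjusted p 0.828 for H3K4me3, 0.666 for H2AK119ub and 0.5365 for H3K27me3). ChIP counts were summed over merged regions that held a peak in all libraries and averaged at least 10 reads, and analysed in R 4.3.3 by the quasi-likelihood test of edgeR 4.0.16 after TMM scaling, where replicate number entered as a block, as in the study, and calls needed an adjusted p under 0.05 with a log2 fold change of 0.5 or more in size. In the knockdown 22060 of 35689 H3K4me3, 6161 of 170847 H2AK119ub and 14942 of 162704 H3K27me3 regions were thus tested. In the inhibitor experiment 8967 of 128296 H3K27ac, 4515 of 111286 H2AK119ub and 8822 of 164649 H3K27me3 regions were. Regions that lost their peak in any library were left out of these fits. DESeq2 1.42.0 and other settings were alternatives. The fits were tested on simulated data. Same-numbered libraries deviated together, with correlations of 0.33 to 0.51 for H3K4me3, 0.24 to 0.71 for H2AK119ub, -0.086 to 0.68 for H3K27me3 and 0.37 to 0.54 after A-485 or DMSO. The study's text calls its replicates biological and made batch by batch, and the labels give only their numbers. Every listed gene is named. The members, the list of 22 pathway genes and the tests were chosen with earlier results of these data known.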

Additional observations from a re-analysis of the deposited data

Results flagged for a closer look

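Of 60 groups of 6 libraries, 38 varied, and in 10 of these 1 library lay far from the others by Dixon's criterion. Its nominal rate of about 1 group in 20 holds for normally distributed values. Covered lengths end at 0 and 3001 bp and are often tied, so that rate does not apply and the 10 are not shown to be an excess. For H3K4me3 coverage these were CDKN2A in shDPPA2+4 DOX replicate 2 (2844 bp, lowest of 6), CDK4 in shDPPA2+4 H2O replicate 1 (2891 bp, lowest), CDK6 in shDPPA4 H2O replicate 2 (2828 bp, lowest) and CDKN1A in shDPPA2 H2O replicate 1 (3001 bp, highest, against a median of 2264 bp). For H2AK119ub, shDPPA2 DOX replicate 1 was the highest DOX library at CDKN2A (2644 bp, with 0 bp in the other 5) and at RB1 (1951 bp, median 300 bp), and shDPPA2 DOX replicate 3 the lowest at CCND2 (939 bp, median 2339 bp). The shDPPA2+4 replicate 1 libraries were the highest at CDKN2B with DOX (1100 bp, median 0 bp) and at CDKN2A with H2O (2000 bp, median 0 bp). For H3K27me3, CCND2 was lowest in shDPPA4 H2O replicate 3 (1539 bp, median 2801 bp).

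The H3K4me3 coverage of RB1 moved in opposite directions in 2 lines, higher with DOX in both replicates of shDPPA4 (3001 and 2751 bp with DOX, 2751 and 2451 bp with H2O) and lower in both of shDPPA2 (2651 and 2951 bp with DOX, 2951 and 3001 bp with H2O), a difference between the lines of 450 bp that was not tested.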

How the results depend on the processing

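Each count of members lost, gained or called was paired with each alternative setting, and 437 pairs were labelled as unchanged and 17 as moved. A count that went from 2 to 3 was labelled as unchanged, as was one that kept its size with other genes. Some counts could not move, such as gains of H3K4me3, which every member already carried. Changes of the peak filter moved the H2AK119ub losses. Each count is given with the share of all promoters called under the same setting. With a log2 fold above 2, 1 member was lost in shDPPA2 (CDK6, 31.2% of promoters) and 0 in shDPPA4, and with all deposited peaks 1 was lost in shDPPA4 (CDKN2A, 5.08%). With 1500 bp counting as marked, the losses in shDPPA4 were again 2 but at CDK6 and CCND3, without CDK4 (17.8%). With single replicates, losses of H2AK119ub ranged from 0 to 3 in shDPPA2 (3 without replicate 1: CCND3, CDKN1B and CDKN2B, 51.1%), were 3 in shDPPA4 either way (36.6% without replicate 1, 27.3% without replicate 3), and ranged from 0 to 1 in shDPPA2+4 (1 without replicate 3: CDKN2A, 17.3%). In shDPPA2, 2 members were gained without replicate 3 (CDKN2A and RB1, 23.1%) and also without the DOX replicate 3 library alone (1289 of 8320 promoters), an alternative chosen after seeing the data, as were the other results without or within these libraries and the scaled H3K27ac reads. H3K27ac losses after A-485 were 4 when 1500 bp counted as marked (CDK4, CCND3, CDKN1A and RB1, 53.0%) and 2 without replicate 2 (CDKN1A and CDKN2B, 47.5%). H2AK119ub gains after A-485 were 2 without replicate 3 (CDK6 and CDKN1A, 13.6%), 1 without replicate 4 (CDK4, 7.21%) and 2 without DMSO replicate 3 (8.31%).

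For regions of H2AK119ub in the mean over lines, 5 of 6 member regions were called without replicate 1, that is from replicate 3 alone, where 25.9% of 9083 regions were (among them CDK4, -1.23, and CDKN1A, -2.15, with edgeR adjusted p = 0.0106 and 0.0103), and 0 without replicate 3. For H3K27me3, DESeq2 called 1 of 4 member regions, the one near CDK4, in shDPPA2 (0.656% of all regions) and in the mean over lines (9.70%), and edgeR called 2 in the mean over lines without replicate 1 (26.3%) and without shDPPA4 H2O replicate 1 (19.9%). The cause was not tested. Without the replicate block, 0 member regions were called for any target, as with the block. The 2269 values of single promoter regions kept their sign in 2061 cases, and of the other 208 none was called before or after. Fits without 1 replicate number for H3K27ac and H2AK119ub after A-485 left no residual degrees of freedom and were not run. Limits are the 2 libraries in each group, their unequal depth (H2AK119ub 1330926 to 4136521 reads), the doubtful DOX replicate 3 libraries, and peak calls that turn a small difference in fold into presence or absence.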
